A study of Rattus norvegicus with 6 samples.

Results

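The miR-183 cluster is a set of miRNA genes (Mir183, Mir96 and Mir182) that are transcribed as 1 precursor and cut into separate hairpins. Its members were taken by symbol from the deposited table of small RNA levels: of these 3 symbols, the table of 32883 genes has rows for 2, Mir183 (ENSRNOG00000035451) and Mir96 (ENSRNOG00000035624). Mir182 is not analysed here beyond its reference sequence.

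The libraries came from 6 clones of INS-1, a rat insulinoma line that secretes insulin and also carries a human insulin transgene and a mouse Ins2 C-peptide-mCherry reporter, grown in medium with 7.5 mM glucose and given no treatment. The 3 control lines (5-9, 2 and 16) carry a CRISPR/Cas9 deletion of the Prader-Willi syndrome (PWS) imprinted domain on the silent maternal chromosome, and the 3 PWS lines (3, 19-1 and 19-4) carry that deletion plus one on the active paternal chromosome. Every line thus shares the maternal deletion and descends from line 5-9. Line 3 has its own proximal paternal breakpoint, and lines 19-1 and 19-4 are subclones of a single edited line. Each line gave 1 library, so the p-values below rest on differences between clones and between libraries, which cannot be told apart. Lines 19-1 and 19-4 count as separate samples except where they are averaged.

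miRNAs are short RNAs of which bases 2 to 8, the seed, pair with target mRNAs and lower their translation and stability. The cluster is best known from sensory organs, where hair cells, photoreceptors and sensory neurons express it strongly, and changes in the seed of miR-96 cause inherited hearing loss. Neuroendocrine cells also express it. Target genes described for its members include Foxo1, Mitf and Adcy6.

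The sequences are shown to let the seeds and the shared parts of the 3 products be compared, since the cluster's members are relatives by sequence as well as by position. The RefSeq table of build GRCr8 matched all 3 symbols and places them on chromosome 4, minus strand, between the protein-coding genes Nrf1 and Ube2h. In the direction of transcription Mir183 comes first (chr4:59756044-59756153), Mir96 follows after 97 bases (chr4:59755841-59755946) and Mir182 after a further 3533 bases (chr4:59752246-59752307). The mature sequences follow 5′ to 3′, with the seed in capitals.
rno-miR-183-5p: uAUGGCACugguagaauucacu
rno-miR-96-5p: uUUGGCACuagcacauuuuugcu
rno-miR-182: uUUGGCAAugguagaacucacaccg
rno-miR-183-3p: uGAAUUACcgaagggccauaa
rno-miR-96-3p: cAAUCAUGugcagugccaauau

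Counted from the 5′ end, the seeds of miR-96-5p and miR-183-5p differ by U2A and those of miR-96-5p and miR-182 by C8A, so each pair shares 6 of 7 seed bases. Beyond the seed the likeness runs another way. miR-183-5p and miR-182 are identical at 12 of the 14 compared positions after base 8, whereas miR-96-5p and miR-183-5p are identical at 6 of 14. No other miRNA among the 724 mature sequences of the table has any of these 5 seeds, and none has an identical mature sequence, so the rule for naming miRNAs with a member's seed gave no further gene.

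The hairpins show how the mature products (capitals) lie in each precursor, and which bases could yield a counted read, since the files hold 1 value per gene and do not separate the 5p and 3p products.
Mir183 hairpin: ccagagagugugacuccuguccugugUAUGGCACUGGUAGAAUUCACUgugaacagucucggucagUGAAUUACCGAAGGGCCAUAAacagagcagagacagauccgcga
Mir96 hairpin: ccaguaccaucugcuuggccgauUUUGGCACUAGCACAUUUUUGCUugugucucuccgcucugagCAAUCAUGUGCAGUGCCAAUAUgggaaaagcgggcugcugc
On the opposite strand of the Mir183 hairpin the table lists another miRNA gene, Mir3553, whose mature sequence holds the reverse complement of all 22 bases of miR-183-5p. Mir3553 has no row in the deposited tables and the strand setting of the counting is not given in the sources used here, so a share of opposite-strand reads in the Mir183 value was not tested.

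Recovered depth ranged from 7373691 reads (line 19-4) to 16480475 reads (line 3). The labels were checked with the summed Snord116 genes, which lie in the deleted domain: they held 5557 to 8804 normalized reads in control lines and 2 or 3 reads in each PWS line. The β-cell marker genes (11 of 11 with reads) include Mir375, at 720240 ± 76970 normalized reads in control lines, and the insulin gene Ins1, at 193.5 ± 83.2 in control and 125 ± 51.6 in PWS lines (SD, n = 3). The log2 difference of Ins1 was -0.61 ± 0.36 (SE; limma adjusted p = 0.860). Protein-coding markers were read as short fragments only, which say little about mRNA levels. Over the 11 markers the differences went both ways, positive for 3 and negative for 8, from -2.03 (Ins2) to 1.27 (Chgb) with a median of -0.09, and 0 were called. Of 17 markers of other cell types 11 had a row, and 8 of these, among them Gcg, Sst, Prss1 and Col1a1, were at 0 in every library. Summed, this marker list stood at 44.3 to 69.3 normalized reads in control and 43.1 to 76.5 in PWS lines, nearly all of it Mir142.

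Mir183 was among the most often read miRNA genes of this insulinoma line, and Mir96 from the same precursor was read far less often. Values are normalized reads, that is reads divided by the authors' size factor for the library. Mir183 stood at 355488 in control line 5-9, 390678 in line 2 and 322714 in line 16. It stood at 322305 in PWS line 3, 352006 in line 19-1 and 523439 in line 19-4. Line 19-4 was the highest of all 6, and the other PWS lines lay within or just below the range of the controls, so the groups overlapped.

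Mir96, the member with the deafness-linked seed, stood at 22781 normalized reads in control line 5-9, 17005 in line 2 and 20403 in line 16. It stood at 19313 in PWS line 3, 14594 in line 19-1 and 10108 in line 19-4. Line 19-4, the highest for Mir183, was the lowest here, line 19-1 was next, and PWS line 3 lay inside the control range, so here too the groups overlapped.

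**Figure D1:**
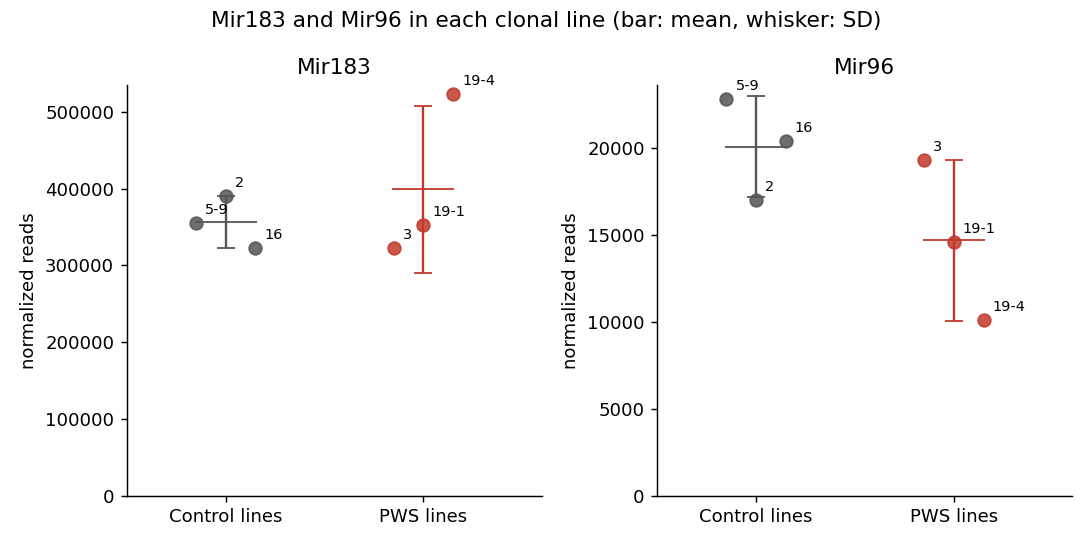
Normalized reads of Mir183 (left) and Mir96 (right) in each clonal line, with control lines in grey and PWS lines in red; the bar is the group mean and the whisker the SD. Line 19-4 has the highest Mir183 value (523439) and the lowest Mir96 value (10108) of the 6 lines.

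Among the 350 miRNA genes (by symbol) with at least 1 read, Mir183 ranked as number 8 in 5 libraries and as number 6 in line 19-4. Mir96 ranked between number 44 and number 54. Mir183 took 3.73% ± 0.575 of miRNA reads over the controls and 4.48% ± 1.40 over the PWS lines (SD, n = 3). Its share in line 19-4 alone was 6.09% (95% Wilson interval 6.08 to 6.11, for counting error only). Mir96 took 0.208% ± 0.0146 in control and 0.163% ± 0.0524 in PWS lines (SD, n = 3).

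The first comparison asked whether loss of the paternal PWS domain went with a different level of either member. Mir183 averaged 356293 ± 33989 normalized reads over the controls and 399250 ± 108571 over the PWS lines (SD, n = 3). On the scale of log2(normalized reads + 1) the difference, PWS minus control, was 0.14 ± 0.21 (SE; limma adjusted p = 0.934). The fold change was 1.10, with a 95% interval of 0.805 to 1.50.

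Mir96 averaged 20063 ± 2903 normalized reads over the controls and 14671 ± 4603 over the PWS lines (SD, n = 3). The difference was -0.49 ± 0.25 (SE) on the log2 scale, with a limma unadjusted p of 0.0635 and an adjusted p of 0.835. The fold change was 0.712 with a 95% interval of 0.496 to 1.02. Of the 2 members, 0 were called by limma at an adjusted p under 0.1, 0 had an unadjusted p under 0.05 (5.96% of all genes tested), and edgeR and DESeq2 on the recovered reads called neither. Over all genes 1.28% were called (55 of 4292), and of the 117 miRNA genes that averaged 1000 normalized reads or more 0 were called. The control and PWS lines did not overlap for 11.2% of all genes tested and for 12% of those 117 miRNA genes, and they overlapped for both members. The median difference was 0.0048 over all genes tested and -0.12 over the 117 miRNA genes, on the log2 scale.

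Line 19-4 carried much of both differences. Without it the difference of Mir183 was -0.08 and that of Mir96 was -0.25 on the log2 scale, with limma adjusted p of 0.988 for both. Without PWS line 3, which resembled the controls, they were 0.27 and -0.71, and the unadjusted limma p of Mir96 was 0.0155 (adjusted p = 0.636). With subclones 19-1 and 19-4 averaged as 1 sample the difference was 0.08 for Mir183 and -0.37 for Mir96. The plot of the genotype difference by setting shows that the Mir96 estimate stayed below 0 throughout and that Mir183 changed sign without line 19-4.

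**Figure D2:**
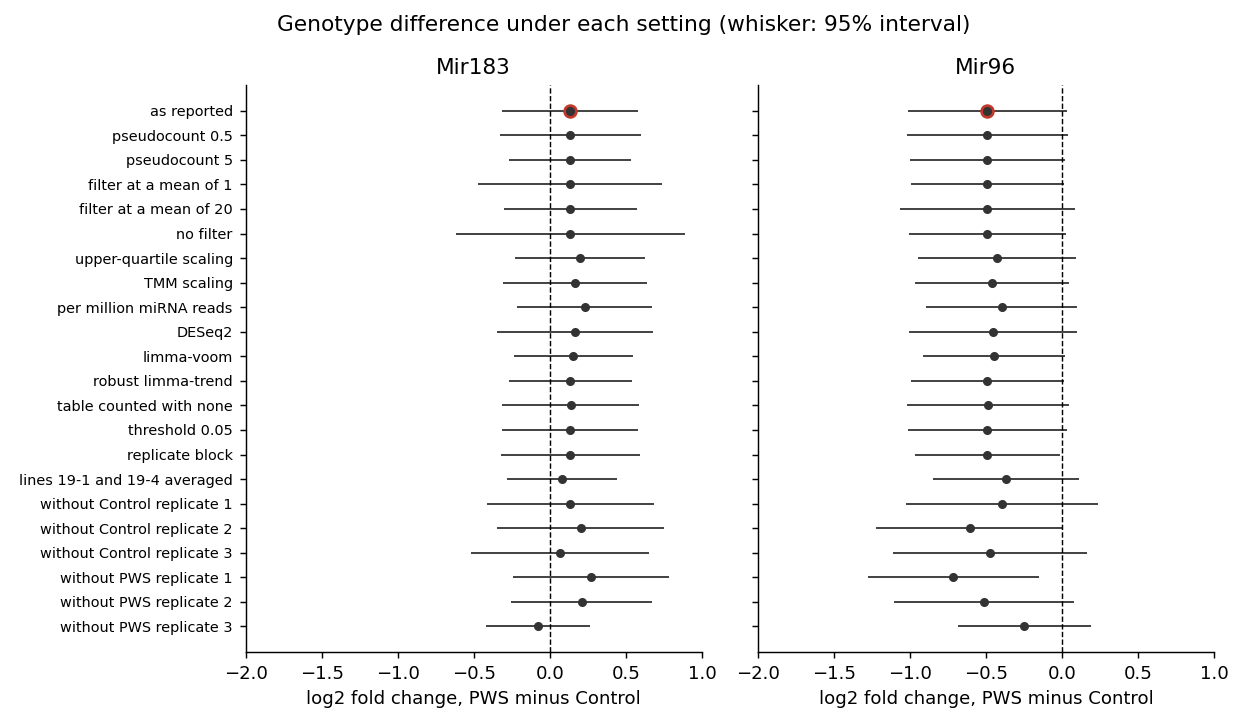
Log2 fold change (PWS minus control) of Mir183 (left) and Mir96 (right) in the reported fit (red) and under each alternative that gives a 95% interval (whisker). Mir96 lies between -0.71 and -0.25, and Mir183 lies between -0.08 and 0.27.

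The second comparison set the members against each other within a library, where the size factor cancels. For each read of Mir96 there were 15.6 reads of Mir183 in control line 5-9, 23.0 in line 2 and 15.8 in line 16. There were 16.7 in PWS line 3, 24.1 in line 19-1 and 51.8 in line 19-4. Lines 5-9, 16 and 3 lay close together at the low end and lines 2 and 19-1 above them, so both low and middle values came from both genotypes, and line 19-4 lay apart from all others.

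The mean ratio was 18.1 ± 4.19 in control and 30.9 ± 18.5 in PWS lines (SD, n = 3), a description with no test. Scaled by hairpin length (110 bases for Mir183 and 106 for Mir96) the ratios were 17.5 ± 4.04 and 29.7 ± 17.8 (SD, n = 3). This scaling multiplies every ratio by the same constant, so it is no check of the ratio. The log2 ratio of Mir96 to Mir183 was 0.63 lower in PWS lines on average. It was 0.17 lower without line 19-4 and 0.99 lower without line 3, so the size of this gap depended on single clones.

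Sequencing depth moved with the ratio. The shallowest libraries, lines 19-4 and 2, had the highest Mir183 values, and the deepest, lines 3 and 16, had the lowest. Over the 6 libraries, of which lines 19-1 and 19-4 are subclones, the correlation of log2 depth with the log2 level was -0.84 for Mir183 (Pearson's r; Spearman's rho -0.94) and 0.71 for Mir96 (rho 0.71). Without lines 3 and 19-4, which lay farthest from the median depth, r was -0.95 and 0.57 over 4 libraries. Of the same 117 miRNA genes, r was under -0.5 for 14 and over 0.5 for 33, and their median r was 0.28. Mir183 had the fifth lowest r of these genes. The part of depth in the values of either member was not tested.

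**Figure D3:**
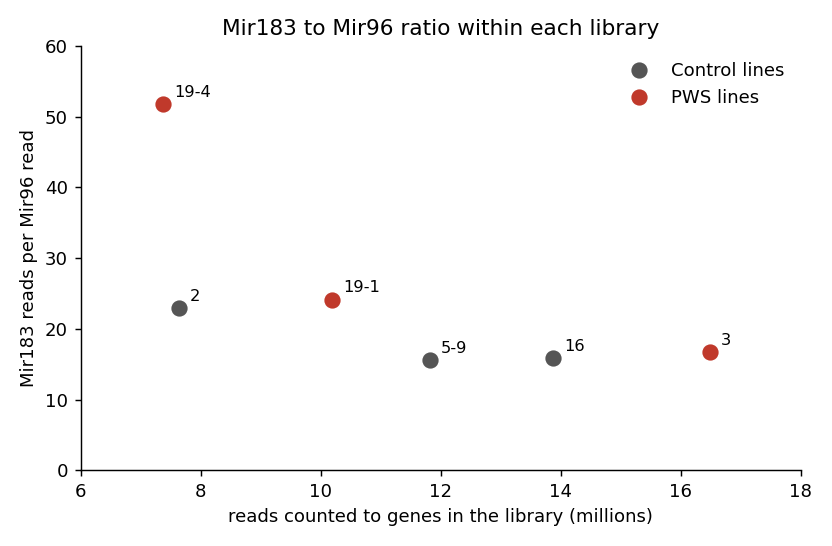
Reads of Mir183 per read of Mir96 in each library (vertical axis) against the reads counted to genes in that library (horizontal axis), with control lines in grey and PWS lines in red. The ratio is 51.8 in line 19-4, the shallowest library, and 15.6 to 16.7 in the 3 deepest.

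The spread of each member depended on line 19-4. The SD of log2 values over the 6 libraries was 0.26 for Mir183 and 0.42 for Mir96, against a median of 0.30 over the 117 miRNA genes. Of these genes 69 had a larger SD than Mir183 and 24 a larger SD than Mir96. Without line 19-4, a comparison added after the values were seen, the SD was 0.12 for Mir183 and 0.25 for Mir96, against a median of 0.20, and 101 and 42 genes had a larger SD. Mir183 thus lay below the median and Mir96 above it with and without that line. Across the 6 libraries Mir183 and Mir96 were related inversely, with r = -0.85 and rho = -0.49, given as a description since line 19-4 alone lies far out on both. Over the other 5 libraries r was -0.34 and rho was -0.10.

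**Figure D4:**
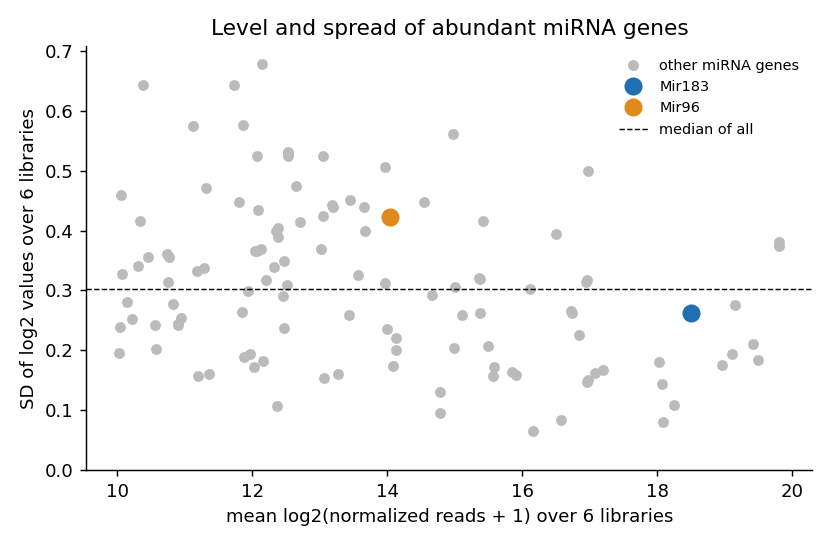
SD of log2 values over the 6 libraries (vertical axis) against mean log2(normalized reads + 1) (horizontal axis) for 117 miRNA genes, with Mir183 in blue, Mir96 in orange and the median SD dashed. Mir96 (0.42) lies above the median of 0.30 and Mir183 (0.26) below it; without line 19-4, which is not plotted separately, these SDs are 0.25, 0.20 and 0.12.

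Line 19-4 lay farther from the other libraries than any of them did from the rest. The median absolute log2 difference between a library and the mean of the other 5, over the 117 miRNA genes, was 0.42 in line 19-4 and 0.12 to 0.31 in the other libraries. The signed median was -0.30 in line 19-4, 0.26 in line 5-9 and -0.04 to 0.11 in the others, so these genes were low as a group in line 19-4. In line 19-4 Mir183 lay 0.59 above the mean of the others on the log2 scale, and 7 of the 117 genes lay higher. Mir96 lay 0.88 below it, and 14 genes lay lower. Relative to the signed median of that library, Mir183 lay 0.89 higher and Mir96 lay lower, at -0.58. In the sister subclone 19-1 Mir96 lay 0.24 below the others, with 10 genes lower, while Mir183 lay 0.10 below. That mean includes line 19-4, whose Mir183 value was the highest, so the sign of the Mir183 difference in line 19-1 depends on it. At 352006 normalized reads of Mir183, line 19-1 lay within the control range of 322714 to 390678. Mir96 was lower in both subclones than in every other line.

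The members were alike in base composition. The annotated mature sequences held 41.9% G and C in Mir183 and 40.0% in Mir96. Across the 100 of 117 genes with a sequence, the correlation of this share with the difference in line 19-4 was weak (r = 0.24, rho = 0.17; genes are not independent replicates). Among the 33 of these genes with the least G and C, to which both members belong, the difference in line 19-4 ran from -0.997 to 0.59, with a median of -0.38. Mir183 had the highest value of those 33.

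The miRNA genes whose pattern over the 6 libraries was most like that of each member are given as a description of log2 levels. For Mir183 they were Mir877 (r = 0.88), Mir25 (r = 0.84) and Mir672 (r = 0.83). All 3 were highest in line 19-4, as Mir183 was. Without that line, left out after the values were seen, r was -0.14 for Mir877, 0.39 for Mir25 and 0.82 for Mir672 over 5 libraries, so the likeness of Mir877 and Mir25 rested on line 19-4. Mir25 belongs to another precursor and stood at 270869 ± 23694 normalized reads in control and 283492 ± 37038 in PWS lines (SD, n = 3). For Mir96 they were Mir181c (r = 0.98), Mir23a (r = 0.97) and Mir384 (r = 0.97). Mir181c stood at 3194 ± 701 in control and 2113 ± 570 in PWS lines (SD, n = 3), and its value in line 19-4, 1500, was the lowest of the 6. The genes like Mir96 were likewise lowest in line 19-4, and without that line r was 0.94 for Mir181c, 0.92 for Mir23a and 0.91 for Mir384. None of the 6 was called by limma (adjusted p from 0.831 to 0.998).

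The genes around the cluster and the genes tied to its function were read as short fragments only, which say little about mRNA levels. Of the neighbours, Nrf1, which encodes a transcription factor of mitochondrial genes, had 21 reads over the 6 libraries, and Ube2h, which encodes a ubiquitin-conjugating enzyme, had 38. Zc3hc1, the third gene of the list fixed for the locus, had 13. Ube2h alone passed the filter, with a log2 difference of -0.19 ± 0.60 (SE) and a limma adjusted p of 0.972. Of 13 target genes known from the literature 5 passed the filter and 0 were called in either direction, with log2 differences from -0.56 to 1.58 and a median of -0.09. Those with the most reads were Adcy6, an adenylyl cyclase, at 23.2 ± 12.8 in control and 29.7 ± 4.53 in PWS lines, and Rac1, a small GTPase, at 12.4 ± 1.75 and 8.19 ± 2.16 normalized reads (SD, n = 3).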

How the data were processed

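Small RNA libraries of 6 clonal INS-1 lines were made, per the study's methods, with a miRNA kit that carries unique molecular identifiers and a widened size selection. Per the labels' processing notes and the methods, the authors used UMI-tools 1.0.0, cutadapt 1.18, Bowtie2 2.3.4.2, HTSeq 0.11.2 and DESeq2, and the notes also name featureCounts and build Rnor_6.0. The deposited values are a signal: the authors divided each gene's count by the library's size factor, which gives normalized reads. All values above 0 were whole multiples of the smallest value of their column (100% within 0.001), so whole reads were recovered. The main table counts a read of several genes for each of them, and the second leaves such reads out. The authors' own fold change and p-value columns were not used.

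The 4292 genes that averaged 5 or more normalized reads were fitted by limma-trend (limma 3.58.1, R 4.3.3) on log2(normalized reads + 1), with 1 term, genotype, and p-values adjusted by Benjamini-Hochberg over all of them. Calls used an adjusted p under 0.1, the study's cutoff. The fit was tested on simulated data. edgeR 4.0.16, DESeq2 1.42.0 and limma-voom were run on recovered reads as alternatives. miRNA genes were taken by symbol, and likeness was Pearson's r over 6 libraries among miRNA genes with a mean of at least 1000. By rule, the members, the 3 most alike miRNA genes of each, the neighbouring genes and, of each fixed list, called genes or else the 2 with the highest control mean were named. Other list genes are examples chosen after their values were seen. The members and lists were chosen with earlier results of these data known. Intervals on shares cover counting error only. Sequences come from RefSeq (GRCr8), a later build than that of the files.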

Additional observations from a re-analysis of the deposited data

How the results depend on the processing

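Neither member was called under any of the 44 alternative settings (22 for each), with adjusted p from 0.848 to 1.00 for Mir183 and from 0.636 to 1.00 for Mir96. The setting with a stricter threshold of 0.05 reused the main fit and was not a separate fit. The log2 difference of Mir183 ranged from 0.08 to 0.23 over the 16 alternatives that kept all lines or averaged the subclones, and from -0.08 to 0.27 when 1 line was left out. Its direction turned in 1 fit, without PWS line 19-4 (-0.077). That of Mir96 ranged from -0.49 to -0.37 and, with 1 line left out, from -0.71 to -0.25. The log2 ratio of Mir96 to Mir183 differed by -0.63 between groups, by -0.45 with the subclones averaged, and by -0.99 to -0.17 with 1 line left out. Both members held the same reads in both deposited tables.

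With the replicate number as a block, the log2 difference was 0.14 for Mir183 (limma adjusted p = 0.932) and -0.49 for Mir96 (unadjusted p = 0.0438, adjusted p = 0.691), and 56 genes were called against 55. The labels number the lines within each genotype and name no pairing. The correlations of same-numbered lines after removal of group means were 0.41, 0.22 and -0.06 over 1087 genes. Differently numbered lines were not compared in this way, so these values cannot decide whether the numbers pair the lines. The planned ratios that need Mir182 and its test were not run, since it has no row. Counting error is small for these members, with 7667 reads or more in every library, and the part of depth in their values was not tested. Without line 19-4, chosen after seeing the data, the SD of log2 values went from 0.26 to 0.12 for Mir183, from 0.42 to 0.25 for Mir96 and from 0.66 to 0.31 for their log2 ratio.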

Other observations

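Other polycistronic miRNA clusters differed in how far their members kept 1 ratio across the 6 lines. The SD of the log2 ratio between the most and the least abundant member with a row was 0.66 for Mir183 and Mir96, and 0.31 without line 19-4, a comparison added after the values were seen. It was 0.036 for Mir25 and Mir106b of the miR-106b-25 cluster, whose levels differ 9.74-fold, 0.23 for Mir132 and Mir212, 0.39 for Mir24-2 and Mir27a, and 0.52 for Mir27b and Mir23b. Mir200b and Mir429 had an SD of 0.69, at far lower levels. Without line 19-4 these SDs were 0.029 for Mir25 and Mir106b, 0.21 for Mir132 and Mir212, 0.37 for Mir24-2 and Mir27a, 0.14 for Mir27b and Mir23b, and 0.74 for Mir200b and Mir429. The place of Mir183 and Mir96 among the clusters thus changed: the pair had a larger SD than Mir24-2 and Mir27a over 6 lines and a smaller one over 5. The range of the log2 ratio of Mir183 to Mir96 was 1.73 (0.63 without line 19-4), against 0.086 (0.073) for Mir25 and Mir106b. These values were not tested against each other. Mir182, Mir200a and Mir24-1 have no row, so 3 of these ratios compare the 2 members of 3 that do. Mir200c has no row either, and Mir19a of the miR-17-92 cluster was at 0 in every library, so those clusters gave no ratio.

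Of 15 genes of miRNA processing, also read as short fragments only, 9 passed the filter, and 0 were called by limma in either direction. Their log2 differences ran from -0.45 to 0.59, with a median of 0.12 against 0.0048 over all genes tested. The difference was positive for 6 of the 9 and negative for 3. Ddx5, a helicase of the nuclear processing complex, had 33.2 ± 5.29 normalized reads in control and 25.6 ± 3.01 in PWS lines, and Dgcr8, the partner of Drosha, had 565 ± 96.03 and 584 ± 137 (SD, n = 3). Of the 3583 reads of Dgcr8, 31 remained in the table that leaves out reads of several genes, so nearly all could be assigned to more than 1 gene and its level is uncertain. Of 9 miRNA genes of neuroendocrine cells that had a row, 0 were called by limma. Their log2 differences were positive for 3 and negative for 6 and ran from -0.95 to 0.35 (Mir7b), with a median of -0.10. The 3 Mir124 genes, which can share reads as near-identical copies, lay lowest, from -0.95 to -0.75. The highest were Mir7a1 and Mir7a2, at 1000200 ± 335922 and 997829 ± 333853 normalized reads in control lines (SD, n = 3).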
